A study of Mus musculus with 4 samples.

Results

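Prmt9 and 3 genes tied to its protein, Pabpc1, Xrn2 and Creb1, were followed across the cell types of bone marrow and spleen of leukaemic mice. The 4 genes were taken by symbol from the 32285 genes in the files, and their raw counts were summed for each cell type and library. Attention was given to cells other than the leukaemia and to differences between cell types inside the same library. The recipients were wild-type C57BL/6J (B6) mice of 6 to 8 weeks, transplanted with MA9 cells, a model of acute myeloid leukaemia driven by the fusion gene MLL-AF9. These leukaemia cells held a short hairpin RNA that doxycycline switches on, directed at Prmt9 (shPrmt9) or a control (Ctrl), and all animals, controls included, drank doxycycline for 7 days. The hairpin was a property of the transplanted cells and not of the recipients. Droplet-based single-cell RNA-seq counted each captured transcript by its unique molecular identifier (UMI). There was 1 library for each hairpin in bone marrow (BM-Ctrl, BM-shPrmt9) and in spleen (Spleen-Ctrl, Spleen-shPrmt9). The study describes the marrow and spleen cells of each hairpin group as taken from a representative mouse.

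PRMT9 is an arginine methyltransferase that makes symmetric dimethylarginine, and the splicing factor SF3B2 is its best known substrate. PABPC1, which binds the poly(A) tail of mRNA and aids translation, and XRN2, a nuclear 5′ to 3′ exoribonuclease that acts at the end of transcription and on R-loops, carry arginines that the study assigned to PRMT9 in leukaemia cells. CREB1 is the transcription factor of the cAMP response, and the study placed it at the PRMT9 promoter. Transcript counts give neither protein amount nor arginine methylation.

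In build GRCm38 (GENCODE), Prmt9 (ENSMUSG00000037134) is a protein-coding gene at chr8:77549397-77581338 on the plus strand. Pabpc1 (ENSMUSG00000022283) lies at chr15:36595661-36609668 on the minus strand, Xrn2 (ENSMUSG00000027433) at chr2:147012996-147078000 on the plus strand and Creb1 (ENSMUSG00000025958) at chr1:64532645-64604548 on the plus strand. Prmt9 overlaps 1 annotated gene on its own strand, Gm45286, and 1 on the other, Gm23468, and 0 of these are listed in the files. Pabpc1 has close relatives and processed copies in the genome, so its counts depend on how reads shared with them were assigned, which is not given in the sources used here.

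CREB1 binds the cAMP response element TGACGTCA, so the start regions of 3 of the 4 genes are shown, with that element, or its core TGACG or CGTCA where the whole element is lacking, in capitals. They come from RefSeq on GRCm38 and run from 90 bases before the start base to 10 bases into the transcript, on the plus strand. The Prmt9 window is chr8:77549307-77549406, that of Xrn2 chr2:147012909-147013008 and that of Creb1 chr1:64532714-64532813.
Prmt9: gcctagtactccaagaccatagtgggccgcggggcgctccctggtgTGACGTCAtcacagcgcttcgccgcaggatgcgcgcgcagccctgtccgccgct
Xrn2: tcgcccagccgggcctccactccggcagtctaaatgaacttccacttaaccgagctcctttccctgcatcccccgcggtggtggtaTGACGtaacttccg
Creb1: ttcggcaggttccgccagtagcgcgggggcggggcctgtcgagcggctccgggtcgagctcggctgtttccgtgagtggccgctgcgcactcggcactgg
The Prmt9 window holds the whole element TGACGTCA at positions -44 to -37, counted with the start base as 1, and the core TGACG lies inside it. The Xrn2 window holds only the core, at positions -4 to 1, and these letters are absent from the Creb1 window. Both strands were searched. Of 32851 mouse promoters of 300 bases, 588 (1.79%) hold TGACGTCA and 6837 (20.8%) hold TGACG or CGTCA. A match is a run of letters and was not tested for binding.

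After cells with under 200 genes or over 20% mitochondrial UMIs were left out, the libraries held 8065 to 11174 cells with median counts of 6668 to 10548 UMIs. Cells were gated by markers, which placed 79.8% to 94.9% of the cells of a library in 1 cell type. Those with no clear leading gate (368 to 1040 per library), which may include doublets, or with no gate (87 to 590) were left out. A gate was used in a library where it held at least 50 cells and its median depth was at least the library median divided by 3. Gates led by more markers of another list than of their own were dropped, except the leukaemia gate. Neutrophil progenitors of BM-Ctrl (62 cells) fell to the last rule, and those of BM-shPrmt9 (97 cells) had a median of only 1138 UMIs. This gave 11, 9, 5 and 10 usable gates in BM-Ctrl and BM-shPrmt9, then Spleen-Ctrl and Spleen-shPrmt9, the order kept below where 4 values are given. The gate meant for the leukaemia was led by the primary granule genes Elane, Ctsg and Prtn3 beside Hoxa9 and Hoxa10, so it is called Hoxa-high here and serves as a reference only. The early erythroid gate was led by the heat-shock genes Hspa1a and Hspa1b beside the erythroid genes Hemgn, Aqp1 and Slc4a1.

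By their sex-linked transcripts, marrow and spleen did not come from the same animals. The study, in contrast, describes a representative mouse of each group as the source of both tissues. In gated cells other than Hoxa-high, Y-linked genes had 0 and 1 UMIs in BM-Ctrl and BM-shPrmt9 but 16270 and 12067 in the Ctrl and shPrmt9 spleens. Xist, the RNA of the inactive X chromosome, was at 21.2 and 237 CPM in the marrow libraries and at 0.159 and 0.0620 CPM in the spleen libraries, where CPM is the UMIs of a gene for each 1000000 UMIs of its gate. Within BM-Ctrl, Xist was at 322 CPM in T cells and 56.3 CPM in mature B cells but at 0 to 4.33 CPM in every other gate, and in BM-shPrmt9 it was at 111 CPM or more in every gate but Hoxa-high (29.8 CPM). In Spleen-shPrmt9, Y-linked genes were at 9.40 CPM in Hoxa-high cells, 36.3 CPM in late erythroid cells and 50.9 CPM in immature neutrophils. The other gates of that library had 115 to 227 CPM. Which gates held transplanted cells was not tested, so gates other than Hoxa-high are not shown to be free of them. Ratios of shPrmt9 over Ctrl in marrow compare gates that differ in Xist, and the part of cell origin in them was not tested. Haemoglobin transcripts, which are made in erythroid cells, were at 294 to 2535 CPM in T cells of the 4 libraries and made up 49.6% to 81.7% of all UMIs in the erythroid gates, which lowers the CPM of every other gene there.

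There were no replicates, so differences between libraries have no test. Bracketed ranges are exact 95% intervals for counting error only. Prmt9 gave between 0 and 989 UMIs per gate and library, so its intervals are wide.

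In BM-Ctrl, Prmt9 was counted at levels that did not separate lymphocytes, monocytes and basophils, at a lower level in mature neutrophils and at the lowest levels in erythroid cells. In BM-Ctrl it was at 14.9 CPM in B precursors (8.71–23.9, 17 UMIs), 13.3 in plasmacytoid dendritic cells (pDC), 12.4 in T cells (8.13–18.2, 26 UMIs), 12.1 in mature B cells and monocytes, 11.5 in basophils, 11.4 in Hoxa-high cells and 11.1 in immature neutrophils (8.97–13.5, 96 UMIs). These 8 gates ran from 11.1 to 14.9 CPM, and no neighbouring pair among them had a ratio whose interval left out 1. Mature neutrophils followed at 5.60 CPM (4.46–6.95, 83 UMIs), clear of immature neutrophils. The early and late erythroid gates were at 1.4999 and 0.721 CPM, from 2 UMIs each.

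In the other libraries the erythroid gates were again lowest, apart from the 0 UMIs of mature neutrophils in Spleen-Ctrl, at 2.53 and 1.30 CPM (7 and 6 UMIs) in BM-shPrmt9, 1.96 CPM (4 UMIs, late) in Spleen-Ctrl, and 0 UMIs (early) and 0.670 CPM (14 UMIs, late) in Spleen-shPrmt9. T cells were at 15.5, 15.3 and 9.29 CPM and mature B cells at 11.8, 13.4 and 9.72 CPM in BM-shPrmt9, Spleen-Ctrl and Spleen-shPrmt9. The lymphoid levels lay above the erythroid levels in every library. Mature neutrophils gave 5.33 CPM (162 UMIs) in BM-shPrmt9 and 5.15 CPM (5 UMIs) in Spleen-shPrmt9, but 0 of 239152 UMIs in Spleen-Ctrl, which allows up to 15.4 CPM, so nothing can be said of that library. Natural killer (NK) cells were at 10.2 and 15.9 CPM in the Ctrl and shPrmt9 spleens, from 14 and 25 UMIs. In Spleen-shPrmt9 the NK level in CPM lay above other lymphocytes, with T over NK at 0.584 (0.386–0.921) and NK over mature B cells at 1.64 (1.04–2.48), while T over NK was 1.504 (0.881–2.79) in Spleen-Ctrl. TMM scaling, with factors of 1.76 for NK, 1.43 for T and 1.31 for B cells of Spleen-shPrmt9, brings both its ratios nearer to 1. Thinned to 2000 UMIs, 2.08% of NK cells (0.432–5.97) there held a Prmt9 UMI. In mature B and T cells the shares were 2.22% and 1.58%, which did not separate NK cells. Basophils had the highest level of any gate in BM-shPrmt9, 20.7 CPM (14.1–29.4, 31 UMIs), and Hoxa-high cells of that library were at 6.28 CPM. The basophil level was not clear of that of T cells there (1.34, 0.749–2.42). Thinned to 2000 UMIs, 0.962% of basophils (0.0243–5.24) and 2.40% of T cells (0.656–6.02) held a UMI.

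Pabpc1 had the opposite erythroid pattern. Late erythroid cells were at 2233, 1638, 1086 and 714 CPM in the 4 libraries, and early erythroid cells at 1588, 1397 and 3572 CPM in the 3 libraries that held them (not Spleen-Ctrl). An erythroid gate was thus highest in each library. T cells were at 695, 555, 691 and 636 CPM and mature B cells at 528, 690.5, 564 and 861 CPM in the 4 libraries. Mature neutrophils were lowest everywhere, at 274, 169, 255 and 177 CPM, and immature neutrophils were close to them, at 285, 198 and 227 CPM in the libraries other than Spleen-Ctrl. NK cells were at 750 and 676 CPM in the spleen libraries, and plasma cells of Spleen-shPrmt9, led by Jchain and immunoglobulin genes, at 394 CPM. Counted per cell instead of per UMI, late erythroid cells held 13.8, 9.39, 13.2 and 8.56 Pabpc1 UMIs against 5.04, 4.67, 6.19 and 6.42 in T cells and 1.17, 1.11, 1.11 and 1.65 in mature neutrophils. The mean level of late erythroid cells thus exceeded that of T cells on both scales in each library, by only 1.12 times in CPM (1.10–1.15) in Spleen-shPrmt9. The share of cells with a Pabpc1 UMI, after thinning each cell to 2000 UMIs, gave another order in spleen. It was 87.4% and 78.7% in late erythroid cells of BM-Ctrl and BM-shPrmt9 against 72.5% and 53.3% in T cells. In Spleen-Ctrl and Spleen-shPrmt9 it was 52.1% and 43.4% against 71.5% and 68.1%. Per cell they were not the highest throughout: monocytes of BM-shPrmt9 held 9.85 Pabpc1 UMIs, and mature B cells of Spleen-shPrmt9 held 16.7.

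Xrn2 set lymphocytes apart from granulocytes more widely than the other 3 genes. T cells were at 349, 311, 297 and 235 CPM in the 4 libraries, and mature B cells at 230.1, 232, 230.3 and 233 CPM. Monocytes were at 151, 148 and 150.5 CPM in the libraries other than Spleen-Ctrl. The counting intervals of the B cell levels overlapped between all libraries, as did those of the monocyte levels. Immature neutrophils were at 56.9, 47.5 and 66.1 CPM, mature neutrophils at 28.4, 31.2, 50.2 and 40.2 CPM and late erythroid cells at 9.37, 11.3, 29.9 and 17.2 CPM. Mature neutrophils of Spleen-Ctrl rest on 12 UMIs of 55 cells. The order T, then B, then granulocytes, then late erythroid cells held in BM-Ctrl, BM-shPrmt9 and Spleen-Ctrl, although mature neutrophils over late erythroid cells had an interval that includes 1 in Spleen-Ctrl (1.68, 0.822–3.15), while in Spleen-shPrmt9 NK (237 CPM), T and B cells were level.

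To compare cells of different depth, each was thinned to 2000 UMIs. A Xrn2 UMI was then found in 45.4% (39.4–51.4), 40.7%, 42.8% and 35.5% of T cells, in 4.98% (4.25–5.80), 5.85%, 12.96% and 4.90% of mature neutrophils and in 1.14%, 2.28%, 4.23% and 2.17% of late erythroid cells. Unthinned shares were 77.4%, 86.4%, 83.6% and 78.8% in T cells, 9.88%, 15.7%, 18.2% and 24.04% in mature neutrophils and 3.79%, 5.10%, 15.5% and 8.31% in late erythroid cells. Thinning left out 2 to 58 T cells, 1 to 321 mature neutrophils and 26 to 314 late erythroid cells per library. No cell type known to lack Xrn2 was at hand, and the late erythroid share was the lowest of these 3 cell types in every library. Median depths before thinning were 6670.0 to 8841 UMIs in T cells, 3318 to 9903.5 UMIs in mature neutrophils and 4329.5 to 12637.5 UMIs in late erythroid cells.

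In CPM, Creb1 differed least of the 4 genes between cell types outside the erythroid gates. With TMM this did not hold in BM-Ctrl, where the fold between highest and lowest gate was 2.51 for Creb1, 2.01 for Prmt9 and 1.75 for Pabpc1. T cells were at 78.5, 62.7, 64.0 and 54.4 CPM and mature B cells at 72.1, 59.2, 69.1 and 43.2 CPM in the 4 libraries, and monocytes at 56.2, 56.1 and 62.4 CPM in the libraries other than Spleen-Ctrl. B precursors of BM-Ctrl were at 87.9 CPM (71.5–107) and pDC there at 71.5 CPM. Mature neutrophils reached 61.4, 46.2, 71.1 and 46.4 CPM, whereas immature neutrophils had 36.7, 28.8 and 34.8 CPM. Plasma cells of Spleen-shPrmt9 were at 19.5 CPM (12.7–28.6, 26 UMIs), below Hoxa-high cells of that library at 32.8 CPM. Late erythroid cells were lowest or next to lowest throughout, at 5.41, 8.46, 7.85 and 4.55 CPM.

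**Figure D1:**
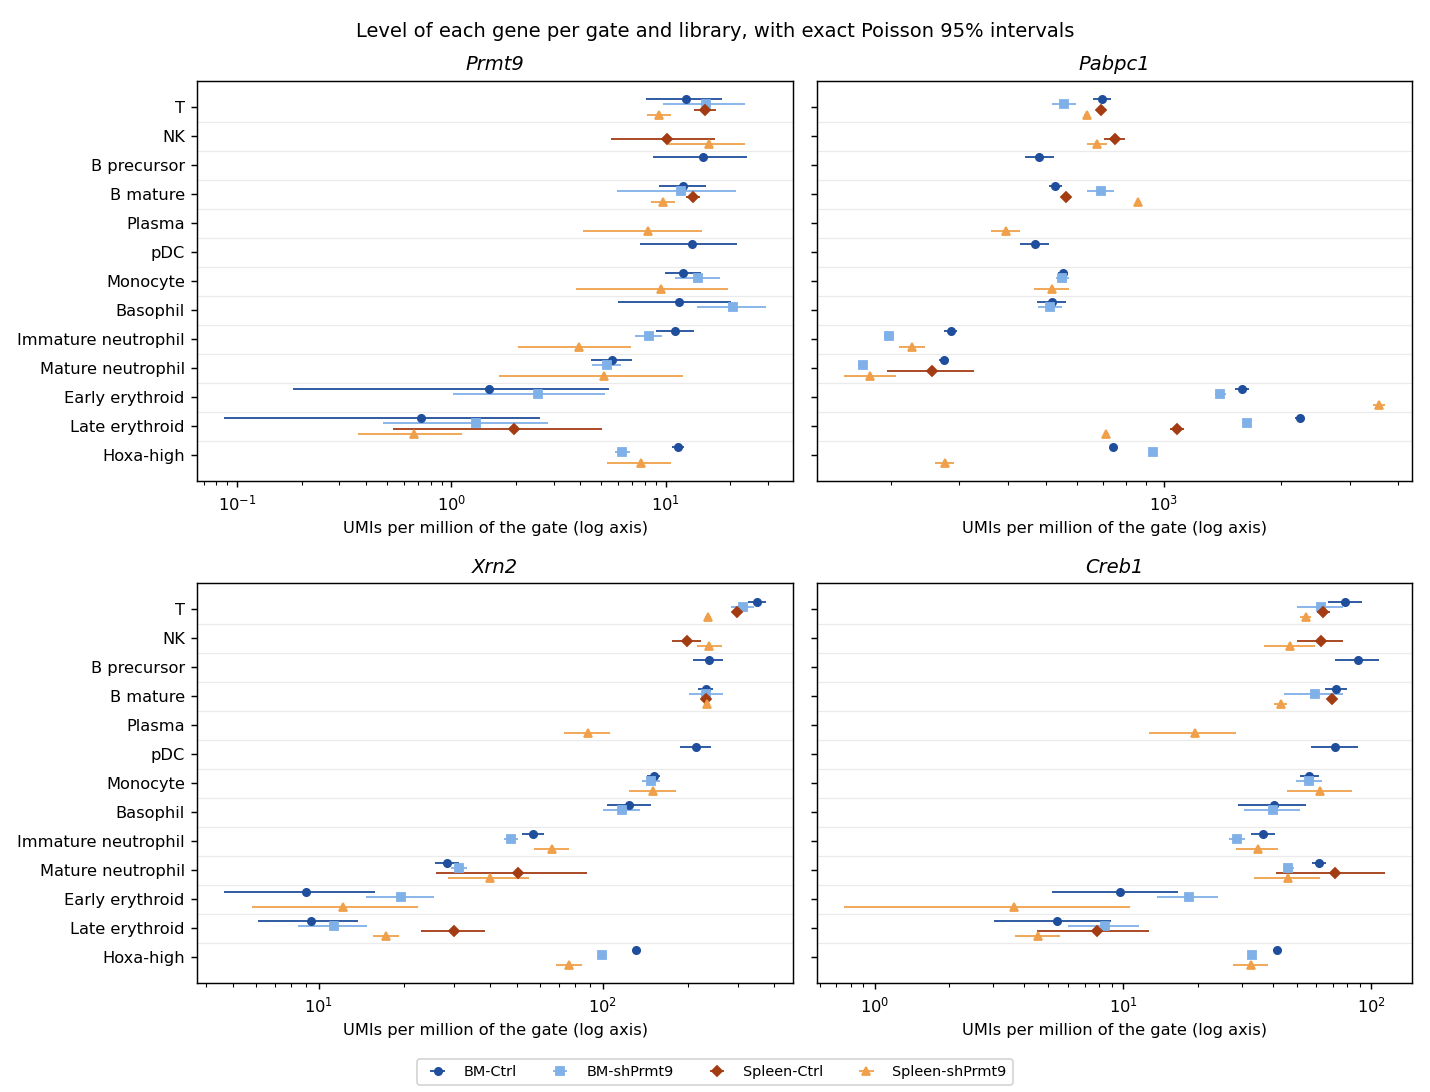
Level of each gene (CPM, log axis) in each gate, 1 panel per gene, with 1 marker per library and bars for the exact 95% counting interval; points with 0 UMIs are not drawn. Pabpc1 is highest in an erythroid gate of each library (1086 to 3572 CPM), although late erythroid cells of Spleen-shPrmt9 (714 CPM) lie below mature B cells there (861 CPM). Among the points drawn the other 3 genes are lowest in an erythroid gate. Xrn2 falls from 235 to 349 CPM in T cells to 28.4 to 50.2 CPM in mature neutrophils.

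Neutrophils differ from each other by stage, and the 4 genes did not move together between the stages. From immature to mature neutrophils, Prmt9 had a ratio of 0.506 (0.373–0.686) in BM-Ctrl and 0.641 (0.517–0.794) in BM-shPrmt9, and Xrn2 had 0.499 (0.437–0.569) and 0.657 (0.602–0.718). Creb1 went the other way, with ratios of 1.67 (1.47–1.91) and 1.60 (1.46–1.76). Pabpc1 had ratios of 0.961 (0.914–1.01) and 0.856 (0.822–0.891). Mature neutrophils were thus lower than immature ones in Prmt9 and Xrn2 and higher in Creb1 in each marrow library.

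In Spleen-shPrmt9, with 141 immature and 104 mature neutrophils, the same ratios were 1.31 (0.360–3.98) for Prmt9, 0.608 (0.420–0.861) for Xrn2, 1.33 (0.917–1.90) for Creb1 and 0.780 (0.656–0.923) for Pabpc1. The Prmt9 and Creb1 intervals include 1, and with gates taken from clusters of cells these ratios of Prmt9 and Creb1 lay below 1. In marrow the Creb1 difference was also present in thinned cells, where 5.99% of immature and 11.5% of mature neutrophils of BM-Ctrl and 5.75% and 9.08% of those of BM-shPrmt9 held a UMI. Unthinned, the shares were 32.4% and 21.2%, and 31.0% and 23.9%, at median depths of 10528.5 and 3718 UMIs in BM-Ctrl and 12498 and 6024 UMIs in BM-shPrmt9. Per cell, mature neutrophils therefore held fewer Creb1 UMIs than immature ones (0.262 against 0.448 in BM-Ctrl, 0.304 against 0.395 in BM-shPrmt9), while Creb1 was a larger part of what they held.

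T cells exceeded mature neutrophils in Xrn2 by 12.3 times (10.9–13.9), 9.96 times (8.88–11.2), 5.92 times (3.38–11.5) and 5.84 times (4.27–8.22) in the 4 libraries. For Pabpc1 the same ratios were 2.54, 3.28, 2.71 and 3.59, and for Prmt9 2.22 (1.37–3.49) and 2.91 (1.77–4.55) in marrow and 1.80 (0.763–5.61) in Spleen-shPrmt9. Those of Creb1 were 1.28, 1.35, 0.901 and 1.17, and with TMM scaling, which sets gates level by their typical gene, the marrow values turned to 0.881 and 0.753. The T cell excess over mature neutrophils was thus widest in Xrn2, and for Creb1 its direction depends on the scaling.

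Between T and mature B cells, Xrn2 was higher in T cells in 3 libraries, by 1.52 (1.38–1.66), 1.34 (1.14–1.59) and 1.29 times (1.25–1.33), and level in Spleen-shPrmt9 at 1.01 (0.973–1.05). Pabpc1 was higher in T cells of the Ctrl libraries, by 1.32 and 1.23 times, and lower in T cells of the shPrmt9 libraries, at 0.805 and 0.738. Creb1 ratios were 1.09 and 1.06 in marrow, with intervals that include 1, 0.927 (0.866–0.991) in Spleen-Ctrl and 1.26 (1.16–1.37) in Spleen-shPrmt9. For Prmt9 all 4 intervals include 1, so no difference between T and B cells was detectable at this depth. Late erythroid over T cells gave 3.21, 2.95, 1.57 and 1.12 for Pabpc1 and 0.0269 to 0.135 for the other 3 genes. These sizes depend on the scaling. With TMM the Pabpc1 ratios were 22.4, 18.4, 7.27 and 8.94, and those of the other genes 0.404, 0.524, 0.594 and 0.574 for Prmt9, 0.187, 0.226, 0.466 and 0.585 for Xrn2 and 0.480, 0.842, 0.567 and 0.665 for Creb1. The direction stayed, but the trough of Prmt9, Xrn2 and Creb1 was much shallower. Within the erythroid gates, Pabpc1 was higher in late than in early cells of marrow, by 1.41 and 1.17 times, but lower in Spleen-shPrmt9, at 0.1999 (0.192–0.208).

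**Figure D2:**
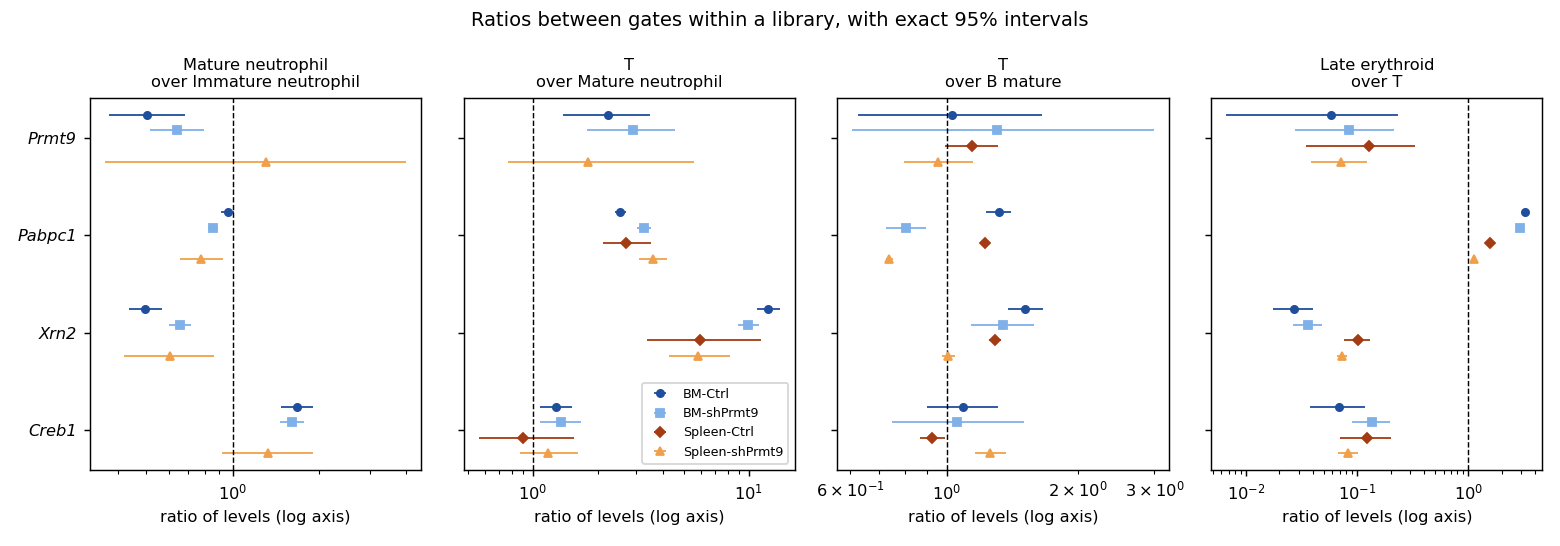
Ratio of CPM between 2 gates of the same library (log axis) for each gene and library, with exact 95% counting intervals and a line at 1. Xrn2 has the widest T over mature neutrophil ratio (5.84 to 12.3), Creb1 is the gene above 1 in mature over immature neutrophils of marrow (1.67 and 1.60), and Pabpc1 is the gene above 1 in late erythroid over T cells.

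Each gene was then set against all other gated cells of its library in the 4 gates that every library held. These other cells include Hoxa-high, the gate with the most UMIs in BM-Ctrl (86400264) and BM-shPrmt9 (94465558). In Spleen-Ctrl most UMIs came from mature B cells (52657792). The cells compared against thus differ between libraries, and in marrow they are largely Hoxa-high. On the log2 scale the mean difference of late erythroid cells over the 4 libraries was -3.22 ± 0.73 (SD, n = 4 libraries) for Prmt9, -3.29 ± 0.42 for Xrn2, -2.91 ± 0.56 for Creb1 and 0.99 ± 0.75 for Pabpc1. In mature neutrophils it was -2.001 ± 0.32 for Xrn2, -1.74 ± 0.48 for Pabpc1 and 0.37 ± 0.17 for Creb1, and Prmt9 was not tested there because of its 0 UMIs in Spleen-Ctrl. These 7 differences had 1 direction in 4 of 4 libraries, although that of Pabpc1 in late erythroid cells was only 0.02 in Spleen-shPrmt9, a ratio of 1.02 whose interval includes 1 (0.998–1.04). The Creb1 mean of mature neutrophils turned to -0.21 when haemoglobin, mitochondrial and ribosomal protein genes were left out of the totals.

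In T cells the differences were 1.23 ± 0.68 for Xrn2 and 0.58 ± 0.46 for Prmt9, each higher in 4 of 4 libraries, 0.64 ± 0.46 for Creb1 (higher in 3 of 4) and -0.07 ± 0.25 for Pabpc1. Mature B cells had 0.53 ± 0.23 for Creb1 (4 of 4), 0.43 ± 0.40 for Prmt9 and 0.82 ± 0.67 for Xrn2 (3 of 4 each), and -0.08 ± 0.37 for Pabpc1. By the exact two-sided sign-flip permutation test over the 4 libraries, each difference with the same sign in all 4 reached the smallest p that the design allows, 2 of 16 sign patterns, and the Benjamini-Hochberg adjusted value over the 15 tests was 0.188. The remaining exact permutation p-values were 0.25 to 0.875. No difference can pass 0.05 in this design, and the libraries differ in tissue and hairpin, so they are not replicates of a condition.

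How far a gene spread over cell types was taken as the fold between its highest and lowest gate, leaving out the erythroid and Hoxa-high gates and any gate with under 3 UMIs of the gene. A spread over 4-fold was common: 63.2% of genes with at least 200 UMIs had one in BM-Ctrl, 56.9% in BM-shPrmt9, 26.0% in Spleen-Ctrl and 61.1% in Spleen-shPrmt9. Xrn2 was over 4-fold in all 4 libraries, Pabpc1 in BM-shPrmt9 and Spleen-shPrmt9, Prmt9 in Spleen-shPrmt9 and Creb1 in 0. The Pabpc1 count depends on the processing: in BM-shPrmt9 its fold was 2.31 with TMM, 3.53 with the mean over cells or a stricter gate and 3.74 without the 5% of cells with the most UMIs, in Spleen-shPrmt9 it was 3.73 with TMM, and in Spleen-Ctrl it was 4.22 with totals without haemoglobin, mitochondrial and ribosomal protein genes. The Prmt9 fold of Spleen-shPrmt9 was 2.48 with TMM. Xrn2 spread by 12.3, 9.96, 5.92 and 5.91 times and lay above the median gene (5.81, 4.77, 2.20 and 4.94 times) in each library, with 69.3%, 71.9%, 82.6% and 57.7% of genes below it. Creb1 spread by 2.40, 2.17, 1.14 and 3.20 times, and only 13.7%, 12.97%, 3.29% and 25.8% of genes were more even. Prmt9 (2.67, 3.88, 1.504 and 4.03 times) and Pabpc1 (2.54, 4.07, 2.94 and 4.86 times) lay under the median gene, apart from Pabpc1 in Spleen-Ctrl. With the erythroid gates kept in, Pabpc1 spread by 8.16, 9.66, 4.26 and 20.2 times. The gates that set these ranges can be small, for example Prmt9 in B precursors of BM-Ctrl (17 UMIs).

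**Figure D3:**
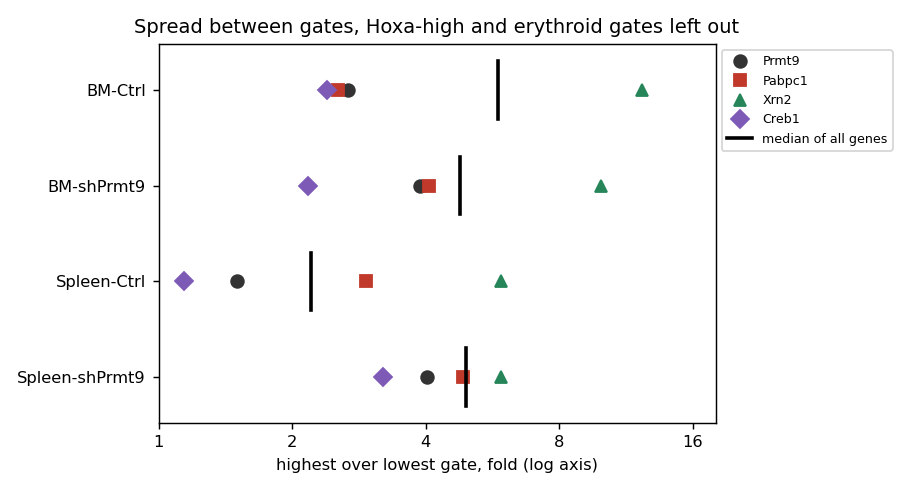
Fold between the highest and lowest gate (log axis) for each gene in each library, beside the median of all genes with at least 200 UMIs there. Xrn2 lies above the all-gene median in each library (5.91 to 12.3 times) and Creb1 below it (1.14 to 3.20 times).

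The hairpin was meant for the leukaemia cells, so Prmt9 was checked there first. In Hoxa-high cells of marrow it was at 11.4 CPM (989 UMIs) in BM-Ctrl and 6.28 CPM (593 UMIs) in BM-shPrmt9, a ratio of 0.548 (0.494–0.608). Of all genes tested there, 37.9% lay past 1.5-fold either way, as did 1 of the 4 members, Prmt9, while Pabpc1 had a ratio of 1.27, Xrn2 0.760 and Creb1 0.791. The question for the other gates was whether the same genes differed between shPrmt9 and Ctrl libraries outside the Hoxa-high cells.

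In marrow, 0 of the 4 genes passed 1.5-fold in T cells (22.5% of all genes did), mature B cells (30.7%), monocytes (31.2%) and immature neutrophils (32.6%). Monocytes were the most even, with ratios of 1.17 (0.853–1.60) for Prmt9, 0.996 for Pabpc1, 0.981 for Xrn2 and 0.998 for Creb1. In mature neutrophils 1 of 4 passed, where the background was 27.5%: Pabpc1 went from 274 to 169 CPM, a ratio of 0.619 (0.594–0.645). Beside it, Prmt9 had 0.951 (0.725–1.25), Creb1 0.754 (0.693–0.820) and Xrn2 1.10 (0.981–1.24). In immature neutrophils the ratios were 0.751 (0.585–0.969) for Prmt9, 0.695 for Pabpc1, 0.836 for Xrn2 and 0.786 for Creb1. The median gene itself was lower in both neutrophil gates of BM-shPrmt9, by a log2 ratio of -0.29 in immature and -0.27 in mature cells, and TMM scaling would raise every ratio there by 0.27 and 0.25.

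In early erythroid cells of marrow 41.1% of genes passed 1.5-fold, as did 2 members, Xrn2 (12 and 54 UMIs, 2.17, 1.15–4.45), Creb1 (13 and 51 UMIs, 1.89, 1.01–3.79), while Prmt9, at 2 and 7 UMIs, fell short of the 20 UMIs required for a count. In late erythroid cells (background 45.3%) Creb1 had a ratio of 1.56 (0.843–3.05), Pabpc1 0.733 (0.709–0.759) and Xrn2 1.20 (0.738–2.01), and Prmt9 had 2 and 6 UMIs, a ratio of 1.81 (0.323–18.3). Basophils (23.5%) had 1 member past the fold, Prmt9, at 1.79 (0.895–3.83). The Prmt9 intervals in these gates all include 1. Across the 8 marrow gates other than Hoxa-high, Prmt9 ratios ran from 0.751 to 1.81 and lay past 1.5-fold upwards in 3, of which 2 had under 20 UMIs, and downwards in 0.

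In spleen T cells Prmt9 went from 15.3 CPM (13.5–17.2, 274 UMIs) in Spleen-Ctrl to 9.29 CPM (8.16–10.5, 243 UMIs) in Spleen-shPrmt9, a ratio of 0.608 (0.509–0.725), and 14.2% of genes had a smaller ratio. It was the 1 member of 4 past 1.5-fold, against 28.3% of all genes either way and 18.2% downwards. Xrn2 had a ratio of 0.791 (0.762–0.820), Creb1 0.850 (0.786–0.919) and Pabpc1 0.921 (0.899–0.942). The 4 ratios were thus all below 1, at an all-gene median of -0.07 (log2). The T cells of Spleen-shPrmt9 also carried more haemoglobin RNA, 2535 against 294 CPM, and its part in these ratios was not tested.

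In spleen B cells Pabpc1 and Creb1 lay on opposite sides of 1. The mature B gate held 6035 cells (67.5% of the library) in Spleen-Ctrl and 1274 (15.8%) in Spleen-shPrmt9. In BM-Ctrl and BM-shPrmt9 it held 937 and 71 cells. Whether the make-up of the gate differed between libraries was not tested. Pabpc1 went from 564 CPM (557–570) to 861 CPM (850–873), a ratio of 1.53 (1.502–1.56), and 90.4% of genes had a smaller one. Creb1 went from 69.1 CPM (66.9–71.4) to 43.2 CPM (40.7–45.9), a ratio of 0.625 (0.583–0.670). These 2 members passed 1.5-fold, against 34.6% of all genes, 10.3% upwards and 24.3% downwards. Prmt9 went from 13.4 to 9.72 CPM, a ratio of 0.726 (0.624–0.842), and Xrn2 stayed at 1.01 (0.979–1.04). B cells were also deeper in Spleen-shPrmt9, with a median of 15257.5 against 6515 UMIs. Of them, 14.1% lay within 0.05 of the gate's score limit against 2.20% in Spleen-Ctrl. What part depth has in these ratios was not tested, and gating was varied only by recomputing them with other gates. TMM scaling would raise all ratios of this gate by 0.20 (log2), which takes Pabpc1 to 1.75 and Creb1 to 0.718, so that Creb1 is no longer past 1.5-fold. With a stricter gate Pabpc1 had 1.40 and was no longer past it, while with gates from clusters of cells it had 1.58.

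NK cells of spleen (background 36.3%) had 1 member past 1.5-fold, Prmt9, at 1.56 (0.783–3.26), with Xrn2 at 1.20 (1.03–1.41), Pabpc1 at 0.901 and Creb1 at 0.754 (0.545–1.04). In mature neutrophils of spleen (48.9%) the member past it was Creb1 at 0.652 (0.366–1.22), beside Pabpc1 at 0.695 (0.516–0.946) and Xrn2 at 0.801 (0.411–1.68). In late erythroid cells of spleen, where 57.2% of genes passed and the all-gene median was -0.50 (log2), Pabpc1 at 0.658, Xrn2 at 0.576 and Creb1 at 0.579 did, and Prmt9 had 0.341 (0.107–1.42) from 4 and 14 UMIs, too few for a count. Under TMM scaling, which adds 0.80 to each log2 ratio there, Pabpc1 turned to 1.15 and Xrn2 to 1.003. TMM also shifted NK cells by -0.19, mature neutrophils of spleen by 0.51, and early erythroid, late erythroid and basophil gates of marrow by -0.12, -0.22 and 0.14. All these contrasts share their 2 libraries per tissue, so gates of a tissue are not independent of each other.

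**Figure D4:**
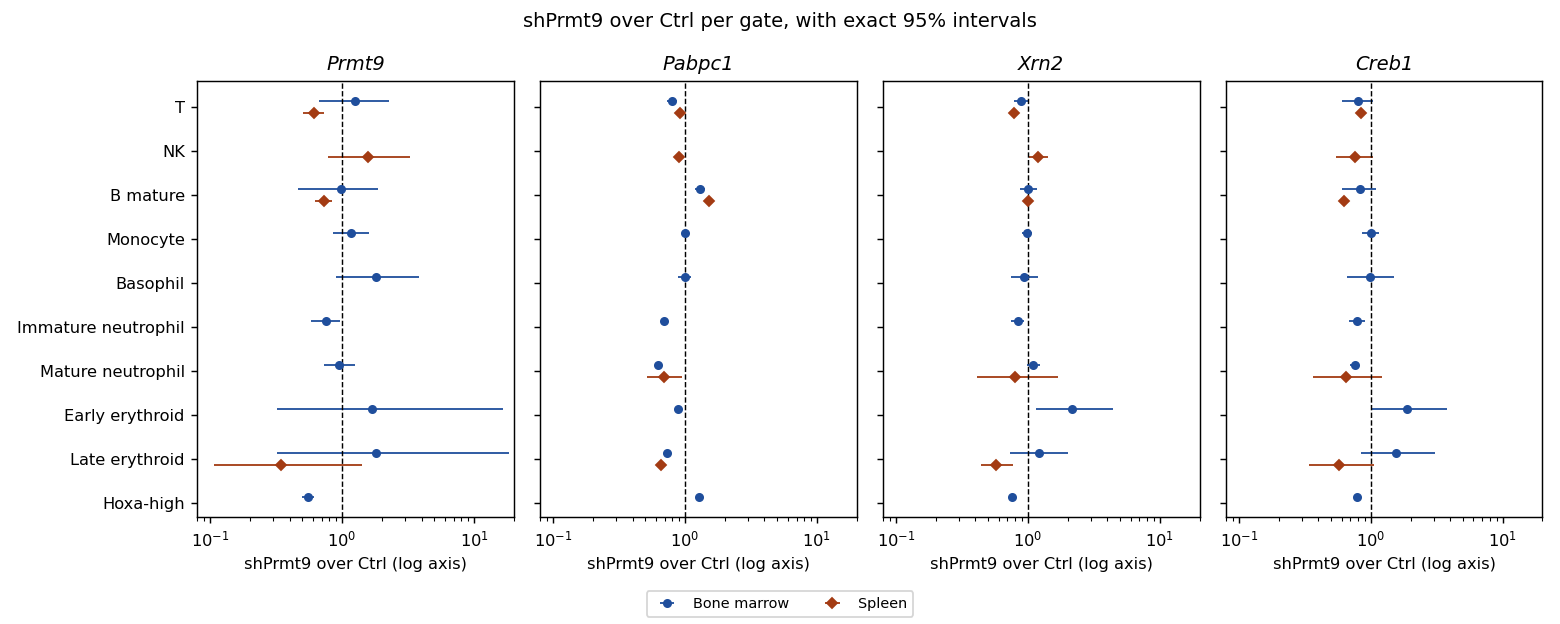
Ratio of shPrmt9 over Ctrl (log axis) for each gene and gate, bone marrow as circles and spleen as diamonds, with exact 95% counting intervals and a line at 1. Prmt9 is below 1 with its interval in Hoxa-high cells and immature neutrophils of marrow and in T and B cells of spleen, and Pabpc1 of spleen B cells stands at 1.53.

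Within spleen T cells, Prmt9 was lower in the shPrmt9 library in both subsets. CD4 T cells (439 and 702 cells) went from 22.1 CPM (17.1–28.1, 67 UMIs) to 10.2 CPM (7.72–13.1, 58 UMIs), a ratio of 0.459 (0.318–0.663), and CD8 T cells (1017 and 1116 cells) from 14.4 to 9.32 CPM, a ratio of 0.646 (0.509–0.819). In Spleen-Ctrl, CD8 T cells were below CD4 T cells in Prmt9 (0.652, 0.487–0.881) and Creb1 (0.665, 0.574–0.772), while Pabpc1 (1.13) and Xrn2 (1.08) were slightly higher. In Spleen-shPrmt9 the CD8 over CD4 ratio was 0.917 (0.669–1.27) for Prmt9, 0.812 (0.714–0.924) for Creb1, 0.908 for Pabpc1 and 1.28 for Xrn2. The ratio for Pabpc1 thus lay on opposite sides of 1 in the Ctrl and shPrmt9 spleens. In CD8 T cells of marrow the shPrmt9 over Ctrl ratio was 0.878 (0.377–1.94) for Prmt9 and 0.802 (0.721–0.890) for Pabpc1.

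Between tissues of the Ctrl animals, T cells of spleen had less Xrn2 than those of marrow (0.851, 0.787–0.9204) and less Creb1 (0.816, 0.692–0.967), and the same Pabpc1 within counting error (0.994, 0.941–1.05). Mature B cells differed by 1.07 in Pabpc1 (1.03–1.11) and 1.001 in Xrn2 (0.942–1.06). Late erythroid cells of spleen had less Pabpc1 (0.486, 0.463–0.510) and more Xrn2 (3.19, 1.99–5.26). Prmt9 intervals include 1 in the 4 gates compared. Tissue and animal cannot be told apart here.

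Other genes of the same pathways were read from 7 lists. Over the 10 gates of BM-Ctrl other than Hoxa-high, the SD of log2(CPM + 1) was 1.90 for Xrn2, 1.29 for Creb1, 1.14 for Prmt9 and 0.96 for Pabpc1. The median was 1.38 over the 10500 genes with at least 100 UMIs. The added 1 lowers the SD of genes at few CPM, such as Prmt9 with 2 UMIs in each erythroid gate. Ranks of such genes by this SD therefore depend on their level. Among the arginine methyltransferases, Prmt3, Prmt1 and Prmt5 varied most (1.93, 1.93 and 1.88), with Prmt1 and Prmt3 highest in mature B cells, and Carm1, Prmt6 and Prmt9 least (0.85, 1.02 and 1.14). Prmt5, which like Prmt9 makes symmetric dimethylarginine, was at 22.9 CPM in B precursors of BM-Ctrl, 21.5 in T cells and 1.22 in mature neutrophils. Prmt8 had 0 UMIs. Sf3b2 and Sf3b4, the splicing substrate of PRMT9 and its partner, had SDs of 1.46 and 1.44 and were both highest in B precursors.

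Among 17 genes of poly(A) binding and its partners, Pabpc1l, Eif4g3 and Larp1 varied most (1.86, 1.85 and 1.74) and Pan2, Eif4e and Paip2 least (0.49, 0.79 and 0.80). Pabpc1l, a germline relative of Pabpc1, was highest in mature neutrophils (27.3 CPM) with 0 UMIs in T cells, which is opposite to Pabpc1. Pabpc4 was highest in early erythroid cells of BM-Ctrl at 148 CPM, as was the cap-binding factor Eif4e at 109 CPM; Pabpc4 is named after its values were seen. Of 15 genes of exoribonucleases, termination and R-loops, Xrn2 itself varied most, followed by Exosc10 and Rnaseh1 (1.68 and 1.43), while Pcf11, Sfpq and Xrn1, the cytoplasmic relative of Xrn2, varied least (0.57, 0.85 and 0.86). Of 8 genes of the CREB family and its coactivators, Crtc3, Crem and Creb1 varied most (1.82, 1.35 and 1.29) and the coactivators Ep300 and Crebbp and the relative Atf1 least (0.54, 0.66 and 0.86). Atf1 and Ep300 were highest in mature neutrophils of BM-Ctrl, at 129 and 173 CPM, against 73.5 and 79.3 CPM in immature ones, the same direction as Creb1.

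The study lists more PRMT9 targets in Molm13 cells, a human leukaemia line, than the 12 taken here, and the others were not analysed here. Among the 12, Vim, Xrn2 and Khdrbs1 varied most (2.37, 1.90 and 1.41) and Gigyf2, Caprin1 and Pabpc1 least (0.44, 0.93 and 0.96). Of 12 early response genes with CREB sites, Sik1, Fos and Dusp1 varied most (2.04, 1.88 and 1.42) and Ier2, Junb and Per1 least (0.81, 0.97 and 1.05). The list medians ran from 1.09 to 1.45.

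Between shPrmt9 and Ctrl in spleen B cells, 6 of the 17 poly(A) genes passed 1.5-fold upwards and 2 downwards, where 10.3% and 24.3% of all genes did. The 6 were Pabpc1, Pabpc4 (1.74), Etf1 (1.66), Eif4a1 (1.73), Eif4e (1.55) and Larp1 (1.53), and the 2 were Pan3 (0.614) and Pabpc1l (0.582, 22 and 6 UMIs). These act in translation, from the initiation factors Eif4a1 and Eif4e to the release factor Etf1, and Pan3 belongs to the deadenylase that shortens poly(A) tails. The list median was a log2 ratio of 0.07 against -0.18 for all genes. Prmt1 (1.84) and Prmt5 (1.88) passed upwards and 0 of 8 Prmt genes downwards, with a median of 0.44, while Prmt9 at 0.726 was the only one of the 8 Prmt genes tested below 1.

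Of 8 CREB family genes in spleen B cells, 0 passed upwards and 2 downwards, Creb1 and Crtc3 (0.578), with a median of -0.39. The early response list had 1 of 12 upwards and 7 downwards, at a median of -0.80: Nr4a2 rested on 17 and 21 UMIs (2.63), and Fosb (0.287), Nr4a3 (0.306), Nr4a1 (0.323), Egr1 (0.335), Fos (0.394), Ier2 (0.558) and Jun (0.589) were lower. Of the 15 exoribonuclease genes 1 passed upwards, Rnaseh2b (1.88), and 1 downwards, Cdkn2aip (0.631), which binds XRN2. Of the 12 PRMT9 targets taken here 1 passed upwards, Pabpc1, and 0 downwards, and 0 of 2 splicing genes passed. Genes of these lists outside the named 3 highest and lowest were named after their values were seen.

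In spleen T cells the early response list had 5 of 12 upwards and 2 downwards, where 10.1% and 18.2% of all genes passed, at a median of 0.53 against -0.07. Nr4a1 (3.12), Nr4a3 (2.61), Nr4a2 (2.11), Dusp1 (1.85) and Per1 (1.61) were higher, and Egr1 (0.505) and Fos (0.557) lower. The list median thus had opposite signs in T and B cells of the same libraries. Of 8 Prmt genes 0 passed upwards and 1 downwards, Prmt9. Of 17 poly(A) genes 1 passed, Pabpc1l (0.403, 17 and 10 UMIs). Rnaseh2b (2.59) passed upwards and Rnaseh2a (0.643) downwards among the 15 exoribonuclease genes, and Vim (0.642) downwards among the PRMT9 targets tested. Of 8 CREB family genes and 2 splicing genes 0 passed.

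Genes whose levels followed each member closely were found by Pearson's r of log2 CPM, centred within each library, over 35 sums of gates and libraries. For Xrn2 they were Rexo4 (r = 0.98), Efr3a, Snrnp48, Rnf220 and Ddx46, for Creb1 Angel2 (0.98), Fam193a, Sfswap, Xiap and Zfp638, for Pabpc1 Psme3 (0.92), Ifrd2, Slc16a1 and Glrx5, and for Prmt9 Smim20 (0.96), Ankrd16, Tfpt, Map2k7 and Ylpm1. With the 29 sums of at least 100 cells, 3 of 5 genes were the same for Xrn2 and 0 of 5 for Prmt9. Among the members, r was 0.89 between Prmt9 and Xrn2, 0.83 between Xrn2 and Creb1 and 0.77 between Prmt9 and Creb1, and -0.40, -0.29 and -0.63 between Pabpc1 and Prmt9, Xrn2 and Creb1. The sums share libraries and totals, and the erythroid gates, where haemoglobin takes most UMIs, lie at the end of each axis, so these values are descriptions only.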

How the data were processed

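The authors deposited unnormalized UMI counts from Cell Ranger, whose version is 6.0.2 in the matrix headers and 6.1.1 in the submitters' processing notes, which name mm10. Groups came from the sample titles. Barcodes under 200 genes or over 20% mitochondrial UMIs were dropped, and the rest scored on marker lists. As a rule, a cell took the gate scoring at least 0.2 and 0.15 above the next, so a gate is a range of a score. Cells without a clear leading gate were left out and no doublet caller was run. Between 15 and 35 barcodes were shared by each pair of libraries. Summed UMIs per gate became CPM, with exact Poisson and conditional binomial 95% intervals (scipy 1.17.1). Genes with at least 20 UMIs over both libraries were tested against 1.5-fold. The ratio code was tested on simulated data. Named list genes were the 3 with the largest and the 3 with the smallest SD of log2(CPM + 1) over gates of BM-Ctrl, among those with at least 100 UMIs. Alternatives used edgeR 4.0.16 for TMM and scanpy 1.11.5 for clusters. The members and lists were chosen with earlier results of these data known. Some genes that the rules would name are not reported here.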

Additional observations from a re-analysis of the deposited data

Results flagged for a closer look

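In 5 cases the shPrmt9 over Ctrl ratio lay on opposite sides of 1 in marrow and spleen, and these differences between tissues were not tested. Prmt9 in T cells had ratios of 1.24 in marrow (26 and 22 UMIs) and 0.608 in spleen. In late erythroid cells the marrow and spleen ratios were 1.81 and 0.341 for Prmt9 (2 and 6, and 4 and 14 UMIs), 1.20 and 0.576 for Xrn2 and 1.56 and 0.579 for Creb1. Xrn2 in mature neutrophils had 1.10 and 0.801, each with an interval that includes 1. Marrow and spleen came from different animals.

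Cells outside the gates used in the comparisons also held the 4 genes: 16.2% of all Prmt9 UMIs, 18.02% of Pabpc1, 18.1% of Xrn2 and 14.8% of Creb1 were counted in them.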

How the results depend on the processing

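No alternative left out a library, since each group has 1, and depth limits Prmt9 most: several gates rest on under 20 UMIs. No paired analysis was possible because each group has 1 library and no test was made between groups. Gates rest on markers, and free RNA was not removed. Of the values recomputed under the alternatives, 443 of 495 shPrmt9 over Ctrl ratios, 1160 of 1351 ratios between gates, subsets or tissues and 125 of 160 ranges moved by less than their counting interval. Most other values moved, 104 of 158: of the shares of cells with a UMI, 94 moved and 46 did not when cells were thinned to 1000 UMIs, and of the shares of genes past 1.5-fold, 7 moved and 7 did not with genes of at least 1 UMI. The reasons for the other moves were not tested. Including the erythroid gates was chosen after seeing the data.

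The fold between highest and lowest gate changed as follows. With TMM it was 2.17 for Prmt9 in BM-shPrmt9, 1.75, 2.31 and 3.73 for Pabpc1 in BM-Ctrl, BM-shPrmt9 and Spleen-shPrmt9, and 8.48 and 5.54 for Xrn2 in the marrow libraries. With totals without haemoglobin, mitochondrial and ribosomal protein genes it was 3.798, 5.88, 4.22 and 7.33 for Pabpc1 in the 4 libraries, 18.4, 14.7 and 9.02 for Xrn2 in BM-Ctrl, BM-shPrmt9 and Spleen-shPrmt9, and 3.03 and 3.13 for Creb1 in marrow. With the mean over cells it was 3.53 and 4.06 for Pabpc1 in the shPrmt9 libraries and 11.3 for Xrn2 in BM-shPrmt9. Pabpc1 in BM-shPrmt9 had 3.53 with a stricter gate and 3.74 without the 5% of cells with the most UMIs, and Xrn2 in BM-Ctrl had 10.7 with gates from clusters. With the erythroid gates it was 15.9, 7.79 and 23.7 for Prmt9 in BM-shPrmt9, Spleen-Ctrl and Spleen-shPrmt9, 8.16, 9.66, 4.26 and 20.2 for Pabpc1 and 16.3, 7.41, 9.06 and 17.1 for Creb1 in the 4 libraries, and 38.8, 27.6 and 19.5 for Xrn2 in the libraries other than Spleen-Ctrl.

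Ratios that turned direction were, with clusters, Pabpc1 in mature over immature neutrophils of Spleen-shPrmt9 (1.01) and in B precursors over mature B cells of BM-Ctrl (1.11), and, with the mean over cells, Xrn2 in late over early erythroid cells of BM-shPrmt9 (1.32) and Pabpc1 in B cells of spleen over marrow (0.971, and 0.999 without the 5% of cells with the most UMIs). Totals without haemoglobin, mitochondrial and ribosomal protein genes turned Pabpc1 in T over NK cells of Spleen-Ctrl (1.04) and the Creb1 mean of mature neutrophils (-0.21, log2). TMM turned Creb1 in T over mature neutrophils (0.881 and 0.753 in marrow) and in monocytes over mature neutrophils of BM-shPrmt9 (0.706), and the shPrmt9 over Ctrl ratios of late erythroid cells of spleen (Pabpc1 1.15, Xrn2 1.003) and of Xrn2 in immature neutrophils of marrow (1.01). Tighter cell filters turned Pabpc1 in early erythroid cells of marrow (1.03).

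The shPrmt9 over Ctrl ratios that moved in T and B cells kept their direction. For Pabpc1 they were 1.18 (mean over cells) and 1.17 (stricter gate) in marrow B cells, 0.897 (reduced totals) and 0.943 (mean over cells) in spleen T cells, and 1.56 (reduced totals), 1.75 (TMM), 1.40 (stricter gate), 1.58 (clusters) and 1.59 (without the 5% of cells with the most UMIs) in spleen B cells. Xrn2 had 0.762 (without those cells) in spleen T cells and 1.16 (TMM) in spleen B cells, and Creb1 had 0.718 (TMM) in spleen B cells.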

Other observations

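Marginal zone B cells, which respond early to blood-borne antigen, differed from follicular B cells in Spleen-Ctrl (607 and 1579 cells, with median depths of 10763 and 6618 UMIs). Pabpc1 was at 669 and 534 CPM, a ratio of 1.25 (1.21–1.30), Xrn2 at 211 and 240.2 CPM, a ratio of 0.880 (0.830–0.933), and Creb1 at 60.9 and 71.9 CPM, a ratio of 0.848 (0.760–0.945). Prmt9 had 12.3 and 13.8 CPM, a ratio of 0.894 (0.696–1.14). Between Spleen-shPrmt9 and Spleen-Ctrl, marginal zone B cells had ratios of 1.20 (1.15–1.25) for Pabpc1, 0.765 (0.649–0.898) for Creb1, 1.02 (0.946–1.11) for Xrn2 and 0.6999 (0.474–1.02) for Prmt9. These are the directions of all mature B cells of spleen, with ratios nearer to 1 for Pabpc1 and Creb1; the differences between subset and gate were not tested.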
